A study of Mus musculus with 24 samples.

Results

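The response of co-cultures with wild-type macrophages to tumour antigen was measured as the difference between 3 libraries with antigen and 3 libraries without it, which are 6 of the 24 libraries of the series. Both groups held wild-type (WT) bone-marrow-derived macrophages kept together with spleen lymphocytes, and the lymphocytes in both groups came from mice that already carried a B16-F10-OVA tumour. B16-F10-OVA is a mouse melanoma line that has been made to express the model antigen ovalbumin. The WT_Ag group also received antigen prepared from B16-F10-OVA tumour cells, and the WT_none group received none. Neither group received added cytokine. The other 18 libraries hold the same 2 conditions with Tmem175-/- (knockout) macrophages, and both genotypes with antigen plus 500 pg/ml of IL-1β or IL-18. The labels give neither the make-up or dose of the antigen, nor the length of exposure, nor the genotype of the lymphocytes, nor whether the 3 replicates are separate mice, preparations or wells. The p-values therefore measure the spread between the samples of this series only, estimated over all 24 libraries and not from the 6 compared ones alone.

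The 6 libraries held 17744540 to 24060414 counts, and 14099 genes with enough counts were tested. Levels are given as CPM, counts scaled to the size of the library, and differences as log2 fold change ± standard error (SE), WT_Ag minus WT_none, with Benjamini-Hochberg adjusted p from edgeR's quasi-likelihood test over all tested genes. Tmem175, the gene that the series deletes in its other arm, stood at 13.7, 16.3 and 15.7 CPM in the WT_Ag libraries, against 26.1, 25.5 and 24.4 CPM in the WT_none libraries (log2 fold change -0.73 ± 0.0726, adjusted p 5.92e-10). Of the WT_none libraries, replicate 2 stood apart, with a higher starting level of several inflammatory genes. Its higher levels were not confined to those. Of 1511 genes that rose at least 2-fold with antigen, replicates 1, 2 and 3 were highest in 541, 563 and 407. Of 1258 that fell that far, they were highest in 343, 576 and 339. Where leaving replicate 2 out moved a printed fold or a count of list members by over 1.5 times, the value without it is given too. A lone number in brackets after a gene is its log2 fold change.

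Macrophages sense microbial and tissue-damage products through Toll-like receptors and related sensors, and cytokines through their own receptors. These signals converge on the transcription factors NF-κB and AP-1 and, through interferon, on STAT and IRF factors. Activated macrophages are known to raise cytokines, chemokines, nitric oxide synthase and antigen presentation, to shift towards glycolysis and to turn down parts of the programme of resting, lipid-handling tissue macrophages. T lymphocytes that meet their antigen on such cells can answer with interferon gamma and cytotoxic granule proteins.

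The antigen response was broad, and after scaling of the libraries nearly as many genes rose as fell. With antigen, 4723 genes rose (33.5% of those tested) and 4868 fell (34.5%), and in 10128 genes (71.8%) the 3 WT_Ag libraries did not overlap the 3 WT_none libraries. Many of these differences were small, and 4717 of the called genes differed by less than 1.5-fold. A difference of at least 2-fold was found for 1511 genes that rose (10.7%) and 1258 that fell (8.92%). Of genes with enough counts in both groups for a fold, 122 rose and 67 fell by at least 10-fold. The median log2 fold change of all tested genes was 0.00, with quartiles at -0.42 and 0.42. The scaling takes most genes as unchanged, which places the median near 0 and bears on the balance of directions. A shift shared by most genes could not be seen. The 1511 genes that rose at least 2-fold took 19.1% to 19.4% of all counts in the WT_Ag libraries and 5.23% to 5.31% in the WT_none libraries. The 1258 genes that fell took 3.70% to 3.96% in the WT_Ag libraries and 13.6% to 13.8% in the WT_none libraries. Since 68% of the tested genes passed the test in either direction and 19.6% also passed 2-fold, members of a gene list are counted below at the 2-fold limit.

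**Figure D1:**
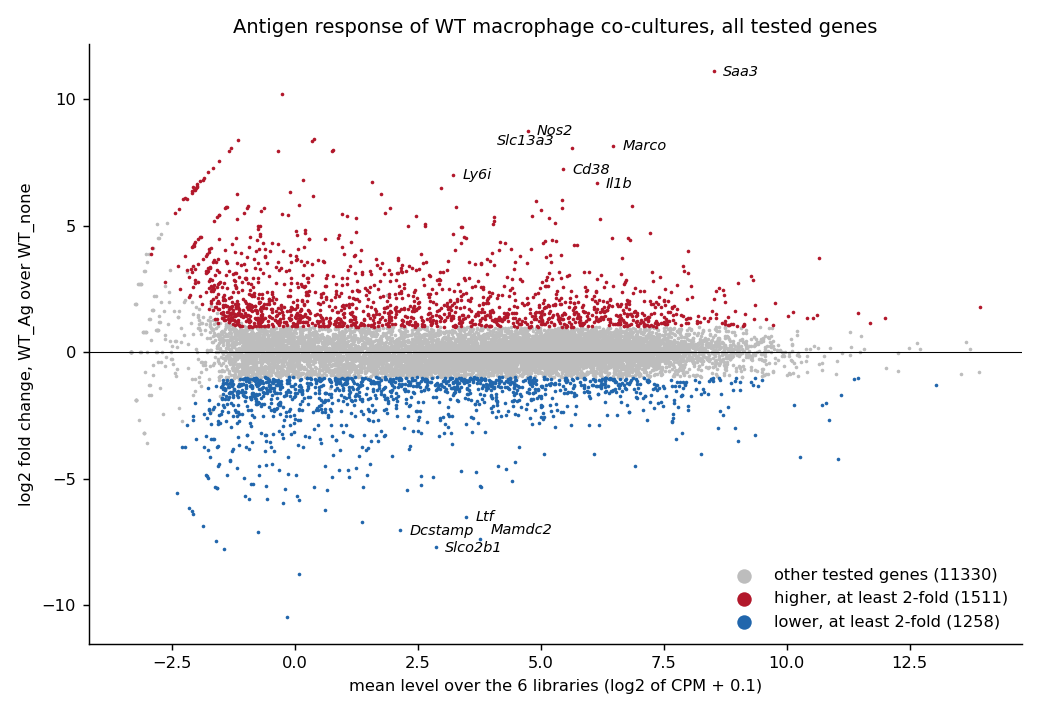
Log2 fold change (WT_Ag over WT_none) of each of the 14099 tested genes against its mean level over the 6 libraries. Red points are the 1511 genes that rose and blue points the 1258 genes that fell by at least 2-fold with adjusted p under 0.05, and grey points are the other tested genes. Saa3 lies highest among the named genes, at 11.10, and Slco2b1 lowest, at -7.71.

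Saa3 had the largest rise among genes with a mean level of 2 log2 CPM or more. It encodes serum amyloid A3, an acute-phase apolipoprotein that macrophages make in inflammation. It stood at 19272, 19513 and 18825 CPM in the WT_Ag libraries, against 3.21, 16.5 and 6.49 CPM in the WT_none libraries, and took 1.88% to 1.94% of all counts with antigen (log2 fold change 11.10 ± 0.404, adjusted p 6.31e-14). The groups are far apart, and within WT_none replicate 2 was highest. Without that library the log2 fold change was 11.96. Marco, a scavenger receptor that binds bacteria and particles, stood at 1640.2, 1464 and 1386 CPM in WT_Ag, against 4.98, 5.16 and 5.61 CPM in WT_none (log2 fold change 8.15 ± 0.174, adjusted p 2.14e-17). Cd38, an ectoenzyme that consumes NAD, stood at 550.0, 522 and 524 CPM in WT_Ag, against 3.45, 3.43 and 3.84 CPM in WT_none (log2 fold change 7.22 ± 0.0669, adjusted p 1.8e-33). Fpr1 and Fpr2, receptors for formylated bacterial and mitochondrial peptides, rose 64.8-fold and 51.6-fold. Other members of the top 15 were the citrate-cycle intermediate carrier Slc13a3 (8.06), the Ly6 family gene Ly6i (7.01), the collagen crosslinking enzyme Lox (5.77), and Tarm1 (5.73) and Siglece (5.39), receptors on myeloid cells. Klra2 (5.96) belongs to the Ly49 receptor family, whose near-identical members can share reads.

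Enzymes that use arginine and produce nitric oxide or itaconate rose together, 7 of 10 tested members by at least 2-fold and none fell that far. Their median log2 fold change was 3.35. Nos2, the inducible nitric oxide synthase, stood at 723, 585 and 674 CPM in the WT_Ag libraries, against 0.247, 3.33 and 0.984 CPM in the WT_none libraries (log2 fold change 8.75 ± 0.446, adjusted p 8.13e-12). WT_none replicate 2 was again the highest of its group, and without it the log2 fold change was 10.06. Arg1, the arginase that competes for the same substrate, stood at 85.7, 83.2 and 78.8 CPM in WT_Ag, against 0.247, 2.08 and 0.443 CPM in WT_none (6.46 ± 0.389, and 7.89 without WT_none replicate 2), and the mitochondrial arginase Arg2 at 14.7, 16.9 and 16.1 CPM in WT_Ag, against 1.63, 1.5 and 1.67 CPM in WT_none (3.32 ± 0.135). Neither gene's groups overlap, so both arginases rose beside Nos2. Ass1, which regenerates arginine from citrulline, stood at 219, 233 and 231 CPM in WT_Ag, against 7.01, 6.37 and 6.4 CPM in WT_none (5.11 ± 0.0711). The next enzyme of that cycle, Asl, went slightly the other way, at 36.7, 38.8 and 34.3 CPM in WT_Ag, against 40.2, 47.2 and 43.3 CPM in WT_none (log2 fold change -0.25 ± 0.0562, adjusted p 0.00028). Acod1, which makes itaconate from a citrate-cycle intermediate, stood at 832, 772 and 799.5 CPM in WT_Ag, against 17.2, 46.5 and 27.8 CPM in WT_none (log2 fold change 4.71 ± 0.369, adjusted p 3.3e-09). The mitochondrial superoxide dismutase Sod2 rose 10.5-fold, and Gch1, which makes the cofactor of nitric oxide synthase, rose 2.57-fold.

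Within the IL-1 and IL-18 family the ligands rose and the receptors split. Il1b, the secreted IL-1β precursor, stood at 789, 731 and 772 CPM in the WT_Ag libraries, against 3.41, 13.1 and 6.05 CPM in the WT_none libraries (log2 fold change 6.66 ± 0.271, adjusted p 3.18e-13), a 101-fold difference. The WT_Ag libraries lie close together, while WT_none replicate 2 was the highest of its group, and the log2 fold change without it was 7.34. Il1a stood at 47.9, 43.9 and 45.5 CPM in WT_Ag, against 2.12, 2.46 and 2.31 CPM in WT_none (log2 fold change 4.31 ± 0.0959, adjusted p 1.71e-24). Il18 rose 2.05-fold (1.04 ± 0.121), and its soluble antagonist Il18bp 4.19-fold (2.07 ± 0.264). The IL-1 receptor antagonist Il1rn rose by a log2 fold change of 0.90 ± 0.116. Among receptors, Il1r1, the signalling IL-1 receptor, rose (4.97), while the shared subunit Il1rap (-0.82), the IL-18 receptor subunit Il18rap (-0.79) and the IL-33 receptor Il1rl1 (-2.89) fell. The decoy receptor Il1r2 was not called (log2 fold change 0.30 ± 0.262, adjusted p 0.322). In the 6 further WT libraries that had antigen plus IL-1β or IL-18, Il1b stood at 805 to 1005 CPM, and Il18 at 20.3 to 28.3 CPM beside 20.5, 24 and 21.2 CPM in WT_Ag.

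The inflammasome machinery that cuts these precursors moved little at the 2-fold limit. Of 13 tested members 1 rose by at least 2-fold and none fell that far, with a median log2 fold change of 0.20. The member past 2-fold was Mefv, which encodes the sensor pyrin, at 158, 163 and 165 CPM in WT_Ag, against 10.5, 12.5 and 10.9 CPM in WT_none (log2 fold change 3.84 ± 0.0487, adjusted p 1.88e-30). Nlrp3, a sensor of cell damage, stood at 93.9, 88.9 and 96.8 CPM in WT_Ag, against 60.7, 70.1 and 66.5 CPM in WT_none (log2 fold change 0.50 ± 0.106, adjusted p 0.000391). Casp1, the protease that cleaves IL-1β and IL-18, stood at 172, 183 and 175 CPM in WT_Ag, against 189, 191 and 186 CPM in WT_none, and was not called (log2 fold change -0.09 ± 0.0829, adjusted p 0.337). Casp4 (0.47), the pore protein Gsdmd (0.45), the membrane rupture protein Ninj1 (0.78) and Naip2 (0.79) rose, and Nlrp1b (-0.56) and Nek7 (-0.44) fell.

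Other inflammatory cytokines rose in 12 of 16 tested members by at least 2-fold and none fell that far, with a median log2 fold change of 1.68. Il6 stood at 7.45, 4.52 and 5.23 CPM in WT_Ag, against 0, 0.145 and 0.0492 CPM in WT_none (adjusted p 1.35e-10), and WT_none held too few counts for a fold. The 2 chains of IL-12, which drives interferon gamma production, both rose, Il12a at 11.2, 10.7 and 11.2 CPM in WT_Ag, against 0.247, 0.241 and 0.246 CPM in WT_none (5.46 ± 0.28) and Il12b at 8.3, 6.33 and 6.36 CPM in WT_Ag, against 0.395, 0.531 and 0.492 CPM in WT_none (3.86 ± 0.255). Csf3, the granulocyte colony-stimulating factor, stood at 0.621, 0.545 and 0.395 CPM in WT_Ag, against 0, 0 and 0 CPM in WT_none (adjusted p 3.69e-06), and no fold is given against a group without a count. Tnf, which is also controlled after transcription, rose 3.32-fold and the anti-inflammatory cytokine Il10 3.1-fold. Vegfa, an angiogenic factor, rose 3.55-fold and Mif 4.04-fold. Tgfb1, a suppressive cytokine, fell (log2 fold change -0.73 ± 0.0383, adjusted p 4.56e-16), and the macrophage growth factor Csf1 was not called (log2 fold change 0.09 ± 0.142, adjusted p 0.606). Interferon beta (Ifnb1), Il23a, Csf2 and Il19 had too few counts to be tested.

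Chemokines that attract neutrophils rose steeply. Cxcl1 stood at 12, 9.84 and 11.8 CPM in the WT_Ag libraries, against 0.395, 0.434 and 0.394 CPM in the WT_none libraries (log2 fold change 4.76 ± 0.213, adjusted p 1.35e-17). Cxcl2 stood at 54.9, 41.8 and 48.3 CPM in WT_Ag, against 2.27, 7.14 and 3.49 CPM in WT_none (log2 fold change 3.48 ± 0.246, adjusted p 7.5e-10, and a log2 fold change of 4.07 without WT_none replicate 2), and Cxcl3 at 32.1, 19.5 and 28.4 CPM in WT_Ag, against 0.148, 0.241 and 0.344 CPM in WT_none (log2 fold change 6.72 ± 0.471, adjusted p 6.31e-10). The products of all 3 genes bind the same neutrophil receptor, and the genes lie close together on chromosome 5 and hold a κB motif, the sequence that NF-κB binds, just before their start. Their promoters are shown because these neighbours rose together and carry the motif at similar distances. Each line gives 150 bases up to the start of the transcript on the plus strand (RefSeq, GRCm38.p6, Cxcl1 chr5:90891095-90891244, Cxcl2 chr5:90903749-90903898, Cxcl3 chr5:90785951-90786100), with capitals marking each match to the motif on either strand (GGG, any 3 bases, TTCC).
Cxcl1: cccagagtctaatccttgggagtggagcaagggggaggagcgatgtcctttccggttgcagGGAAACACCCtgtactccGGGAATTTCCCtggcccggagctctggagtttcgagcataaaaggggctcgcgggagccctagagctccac
Cxcl2: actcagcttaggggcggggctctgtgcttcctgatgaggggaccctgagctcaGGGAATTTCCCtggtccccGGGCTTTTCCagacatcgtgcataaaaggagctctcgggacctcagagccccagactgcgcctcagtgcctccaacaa
Cxcl3: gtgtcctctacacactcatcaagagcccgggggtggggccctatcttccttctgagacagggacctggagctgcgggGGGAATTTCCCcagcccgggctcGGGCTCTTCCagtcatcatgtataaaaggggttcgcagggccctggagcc

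The chemokines that T cells follow through CXCR3 went the other way, less firmly. Cxcl9 stood at 12.1, 8.04 and 10.2 CPM in WT_Ag, against 22.2, 27.8 and 22.9 CPM in WT_none (log2 fold change -1.28 ± 0.515, adjusted p 0.0367), and Cxcl10 at 13.7, 13.5 and 10.9 CPM in WT_Ag, against 16.5, 23.4 and 19.1 CPM in WT_none (log2 fold change -0.63 ± 0.27, adjusted p 0.0476). Neither pair of groups overlaps, but both adjusted p-values lie near the threshold. Over the 11 alternatives they ranged from 0.000114 to 0.112 for Cxcl9 and from 0.00443 to 0.181 for Cxcl10, with a negative log2 fold change in each. In all, 6 of 11 tested CXC chemokines rose by at least 2-fold and 2 fell that far, Cxcl9 and Cxcl14, of which Cxcl14 alone was counted with any 1 WT library left out. Of 10 tested CC chemokines 8 rose by at least 2-fold, or 5 without WT_none replicate 1, and none fell that far (median 1.26). Ccl5, an attractant of T cells and monocytes, stood at 452, 504 and 494 CPM in WT_Ag, against 6.17, 21 and 10.7 CPM in WT_none (log2 fold change 5.26 ± 0.37, adjusted p 7.52e-10), and without WT_none replicate 2 the log2 fold change was 5.85. The monocyte attractants Ccl2, Ccl7, Ccl8 and Ccl12 rose by log2 fold changes of 1.09, 1.01, 2.25 and 3.22, the inflammatory chemokines Ccl3 and Ccl4 by 1.41 and 1.11, and the CCR4 ligand Ccl22 by 2.48. Ccl6 (-0.66) and Ccl9 (-0.70) fell by less than 2-fold. Several CC chemokine genes are close copies of each other, so reads may be shared between them.

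**Figure D2:**
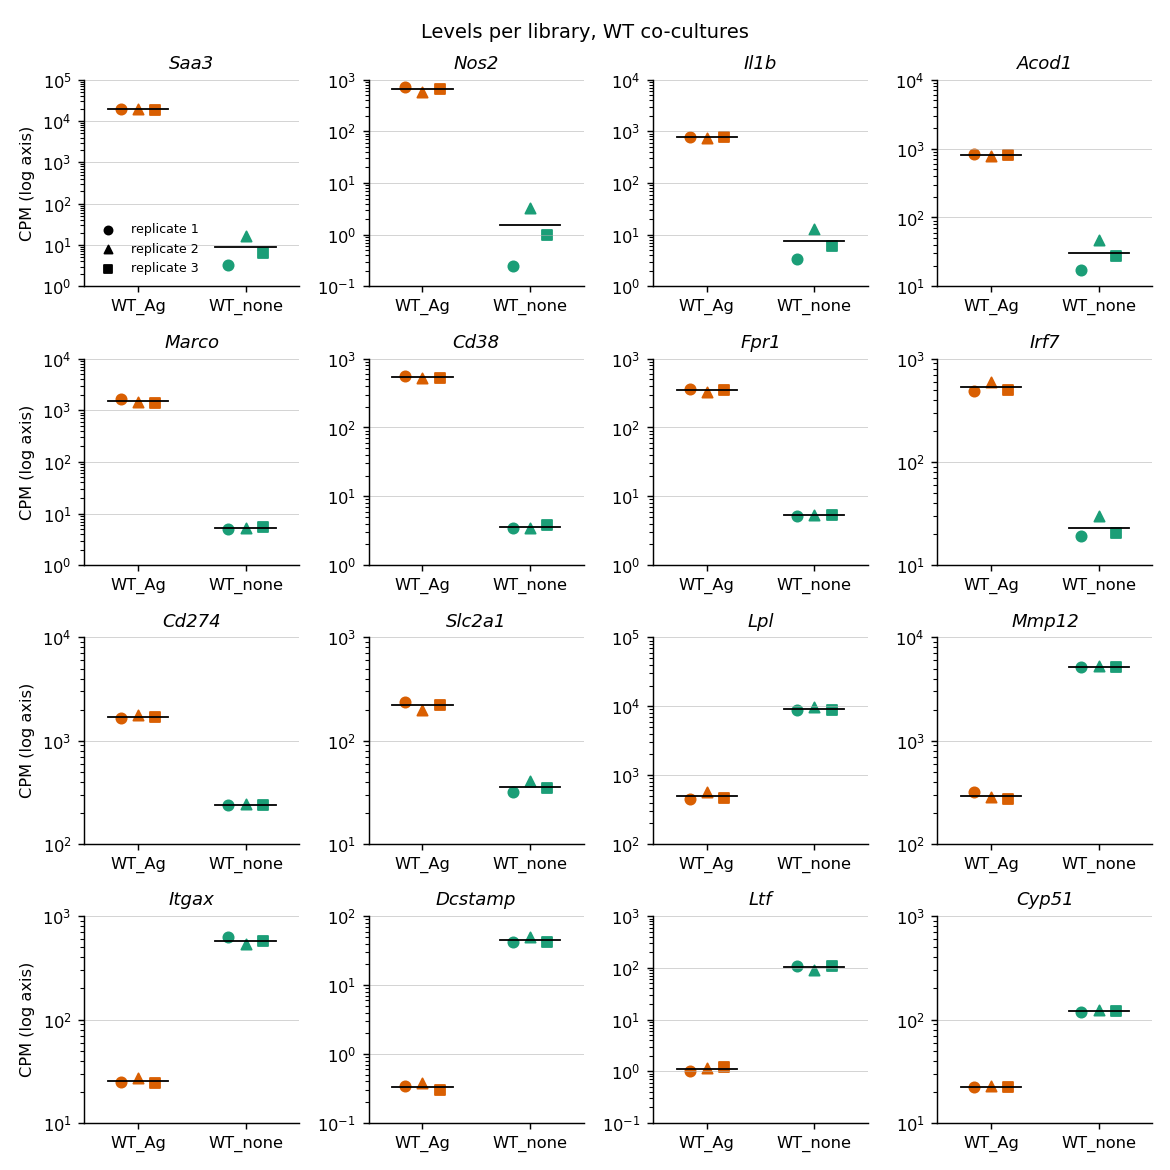
CPM of 16 genes in each WT library, on log axes, with WT_Ag to the left of WT_none, 1 symbol per replicate and a line at the group mean. Each gene has its own axis range. The groups do not overlap in any panel, and for Saa3, Nos2, Il1b and Acod1 WT_none replicate 2 is the highest of its group. That library is also the highest of its group for Irf7, Cd274, Slc2a1, Lpl, Mmp12, Dcstamp and Cyp51.

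In the NF-κB list the largest rises were in feedback regulators. Of its 20 genes 10 rose by at least 2-fold and none fell that far (median 1.11). Socs3, an inhibitor of cytokine receptor signalling, stood at 239.8, 227 and 221 CPM in WT_Ag, against 3.75, 7.77 and 6 CPM in WT_none (log2 fold change 5.29 ± 0.206, adjusted p 1.58e-13). The nuclear cofactor Nfkbiz (2.89), Irak3, which blocks Toll-like receptor signalling (3.08), the RNA-degrading enzyme Zc3h12a (1.87), Bcl3 (2.05) and the inhibitor Nfkbia (1.58) rose. The subunits Nfkb1, Nfkb2, Rela and Relb rose by 0.12, 0.44, 0.34 and 0.80, and Rel had -0.13, a call that was lost when any of 4 single libraries was left out and under DESeq2's test. Among Toll-like receptors, Tlr2, which senses bacterial lipoproteins, rose (1.16), as did Tlr5 (1.74) and the co-receptor Cd14 (1.97), whereas Tlr4 (-0.68) and the endosomal receptors Tlr8 (-0.62) and Tlr13 (-0.81) fell. Of that list of 21, 4 rose by at least 2-fold and none fell that far. Among AP-1, EGR and C/EBP factors, 7 of 17 rose and 4 fell by at least 2-fold. Cebpb, a driver of inflammatory and granulocyte genes, rose 5.77-fold, and the AP-1 partners Batf, Maff and Fosl2 rose by 2.50, 1.80 and 1.68. Egr2, an early response factor of growth signals, fell, at 2.32, 2.26 and 2.76 CPM in WT_Ag, against 63.9, 67.1 and 64.6 CPM in WT_none (log2 fold change -4.74 ± 0.122, adjusted p 4.62e-21), with Egr1 (-1.32) and Egr3 (-1.76) also lower.

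Genes that type I interferon induces rose across the whole list. All 20 tested members were called higher, 19 of them by at least 2-fold, with a median log2 fold change of 2.16. Of all tested genes 33.5% were called higher, and 10.7% by at least 2-fold. Irf7, the factor that amplifies interferon production, stood at 485, 597 and 501 CPM in the WT_Ag libraries, against 19.1, 29.8 and 20.5 CPM in the WT_none libraries (log2 fold change 4.51 ± 0.197, adjusted p 8.53e-13). Isg15, a ubiquitin-like modifier, stood at 99, 109.6 and 86.8 CPM in WT_Ag, against 9.92, 15.5 and 11.9 CPM in WT_none (log2 fold change 2.98 ± 0.188, adjusted p 1.44e-10), and Usp18, which removes it, at 45.7, 49.6 and 45.3 CPM in WT_Ag, against 3.8, 5.21 and 3.15 CPM in WT_none (3.53 ± 0.207). The groups do not overlap for these 3 genes. Ifi44 rose by 4.05, the oligoadenylate synthetase family members Oasl1 and Oas3 by 3.57 and 2.84, and the signal transducer Stat2 by 1.58. The interferon-inducible GTPases, which attack vacuoles that hold microbes and answer to interferon gamma, rose less evenly, 6 of 15 by at least 2-fold and none fell that far (median 0.81). Gbp6 rose 7.24-fold and Igtp 2.71-fold, while Gbp2 (0.23, adjusted p 0.621) and Gbp9 (-0.06, adjusted p 0.852) were not called. Iigp1 rose by 1.15 (adjusted p 0.0289), a call that was lost with no filter on low counts and with any single WT library left out except WT_Ag replicate 3 (adjusted p 0.0520 to 0.0685). Tgtp1 and Tgtp2, near-identical copies that can share reads, were not called either.

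Promoters of Isg15 and Igtp and of Bst2, an interferon-induced membrane protein that tethers viruses and that rose by 2.39, are shown because all 3 genes rose and hold the spaced GAAA repeats that STAT and IRF factors bind. Each line gives 150 bases up to the start of the transcript, read 5′ to 3′ on the gene's strand (RefSeq, GRCm38.p6, Isg15 chr4:156200819-156200968 minus strand, Bst2 chr8:71537473-71537622 minus strand, Igtp chr11:58199406-58199555 plus strand). Capitals mark each match on either strand to GAAA, any 2 bases, GAAA.
Isg15: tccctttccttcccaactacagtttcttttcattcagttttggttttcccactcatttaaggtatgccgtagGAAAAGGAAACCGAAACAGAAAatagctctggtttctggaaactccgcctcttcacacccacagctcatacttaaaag
Bst2: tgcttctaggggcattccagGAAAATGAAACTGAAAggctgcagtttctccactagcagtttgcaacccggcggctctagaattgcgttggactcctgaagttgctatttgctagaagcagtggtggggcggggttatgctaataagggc
Igtp: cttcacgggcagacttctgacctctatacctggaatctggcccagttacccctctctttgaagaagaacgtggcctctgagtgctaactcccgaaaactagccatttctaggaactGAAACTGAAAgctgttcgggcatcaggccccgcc

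Counted over promoters of 300 bases (250 before and 50 after the start), the spaced GAAA repeat was found in 72 of 1020 genes that rose by at least 2-fold and have a listed promoter (7.06%), in 28 of 867 that fell (3.23%) and in 344 of 10220 tested genes (3.37%). It was found in 8 of 14 listed type I interferon genes and in 9 of 10 of the GTPases. In the other lists searched it was found in 2 of 9 CXC chemokines, 1 of 11 cytokines, 0 of 17 NF-κB genes and 0 of 6 CC chemokines. The 95% binomial interval (exact Clopper-Pearson, counting error only) ran from 5.56% to 8.81% among genes that rose and from 2.16% to 4.63% among genes that fell. The κB motif was found in 71 of 1020 genes that rose (6.96%), in 51 of 867 that fell (5.88%) and in 659 of 10220 tested genes (6.45%). It was found in 6 of 17 listed NF-κB genes and in 4 of 9 CXC chemokines. In the other lists searched it was found in 1 of 6 CC chemokines, 2 of 11 cytokines, 2 of 14 type I interferon genes and 2 of 10 GTPases. Both motifs were searched on both strands, the first listed promoter of each gene was used, and matches may overlap. A match describes letters in this window and not binding.

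Genes for presenting peptides on MHC class I rose while those for class II fell. In the class I list 5 of 15 rose by at least 2-fold and none fell that far (median 0.78). The heavy chain H2-K1 rose 2.56-fold, and its partner B2m stood at 4853, 4932 and 4989 CPM in WT_Ag, against 2254, 2193 and 2300.0 CPM in WT_none (log2 fold change 1.13 ± 0.0841, adjusted p 7.43e-10). The peptide transporter Tap1 rose 2.97-fold and the class I transactivator Nlrc5 2.16-fold. In the class II list 2 of 10 rose and 4 fell by at least 2-fold (median -0.76). Ciita, the master regulator of class II, stood at 12.1, 13.6 and 13.9 CPM in WT_Ag, against 72.2, 58.9 and 65.3 CPM in WT_none (log2 fold change -2.30 ± 0.299, adjusted p 2.44e-06). The invariant chain Cd74 stood at 291, 298 and 330.0 CPM in WT_Ag, against 707, 671 and 763 CPM in WT_none (log2 fold change -1.22 ± 0.231, adjusted p 0.000159), and H2-Aa at 148, 153 and 172 CPM in WT_Ag, against 379, 369 and 407 CPM in WT_none (-1.29 ± 0.254). The members that rose were H2-Oa (1.69) and H2-Ob (1.80), which restrain peptide loading in the mouse.

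Ligands that speak to T cells rose in both senses, stimulating and restraining. Of 14 tested members 7 rose by at least 2-fold and none fell that far (median 1.02). Cd86, a costimulatory ligand of CD28, stood at 90.1, 84.5 and 94.3 CPM in WT_Ag, against 20, 25.2 and 22.1 CPM in WT_none (log2 fold change 2.00 ± 0.146, adjusted p 1.01e-09). Cd274, which encodes the inhibitory ligand PD-L1, stood at 1662, 1766 and 1679 CPM in WT_Ag, against 237, 245 and 237 CPM in WT_none (log2 fold change 2.83 ± 0.172, adjusted p 9.43e-11). The groups do not overlap for either gene. The 4-1BB ligand Tnfsf9 rose 6.2-fold, Nectin2 5.57-fold, Pvr 4.12-fold and Lgals9 2.76-fold. Cd40 rose by 1.02 and Cd80 by 0.48. Pdcd1lg2, the second ligand of PD-1, was not called (log2 fold change 0.19 ± 0.328, adjusted p 0.633).

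Glycolysis genes rose at nearly every step, 18 of 23 listed genes by at least 2-fold and none fell that far (median 1.50). Slc2a1, the glucose transporter, stood at 237, 199 and 223 CPM in the WT_Ag libraries, against 32, 41.2 and 34.9 CPM in the WT_none libraries (log2 fold change 2.61 ± 0.15, adjusted p 3.89e-11). Of the hexokinases that trap glucose, Hk2 rose 4.48-fold, Hk1 1.9-fold, and Hk3 fell (-0.29). Pfkfb3, whose product activates phosphofructokinase, rose 8.73-fold and the phosphofructokinase Pfkl 4.07-fold. The lower steps Aldoa, Tpi1, Gapdh, Pgk1, Eno1, Pkm and Ldha rose by log2 fold changes of 1.59, 1.38, 1.46, 1.50, 1.29, 1.34 and 1.32, and Slc16a3, which exports lactate, by 3.14. Gapdh and other genes of this list have many pseudogenes, with which they can share reads. Hif1a, the hypoxia-inducible factor, stood at 496, 535 and 537 CPM in WT_Ag, against 121, 124 and 122 CPM in WT_none (log2 fold change 2.10 ± 0.0526, adjusted p 1.21e-22), and its known targets Egln3, Bnip3 and Ndrg1 rose by 2.93, 2.78 and 2.37. Oxidative phosphorylation and the citrate cycle showed no change past 2-fold: of 24 members none differed by 2-fold, 9 rose and 11 fell by less, and the median was 0.00. The largest of these were Cox5a (0.84) and Fh1 (-0.54).

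Sterol and fatty acid synthesis fell, with 10 of 18 members lower by at least 2-fold and none higher by that much (median -1.18). Cyp51, which removes a methyl group from lanosterol, stood at 22.2, 22.9 and 22.2 CPM in the WT_Ag libraries, against 117, 125 and 122 CPM in the WT_none libraries (log2 fold change -2.43 ± 0.103, adjusted p 4.69e-14). It was lower in every WT_Ag library than in any WT_none library. Hmgcs1, Idi1 and Sqle fell by log2 fold changes of -1.56, -1.95 and -1.82. The fatty acid synthase Fasn (-1.31) and the desaturase Scd1 (-1.20) fell, the desaturase Scd2 rose (0.46), and Srebf1, a regulator of these genes, was not called (log2 fold change 0.07 ± 0.0417, adjusted p 0.121). Lipid uptake and storage also fell in part. Lpl, the lipoprotein lipase that frees fatty acids for uptake, stood at 452, 562 and 459.8 CPM in WT_Ag, against 8920.4, 9703 and 8865 CPM in WT_none (log2 fold change -4.22 ± 0.202, adjusted p 3.37e-12). Pparg, a nuclear receptor for fatty acids, stood at 12.6, 14 and 13 CPM in WT_Ag, against 76.2, 81.6 and 77.9 CPM in WT_none (log2 fold change -2.57 ± 0.0624, adjusted p 1.16e-23), with Plin2, which coats lipid droplets, at -2.16 and the fatty acid carrier Fabp4 at -1.97. In that list of 14, 1 member rose by at least 2-fold (Ppard, 1.42) and 4 fell. The cholesterol exporters moved apart, Abca1 rising (0.81) and Abcg1 falling (-0.94).

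**Figure D3:**
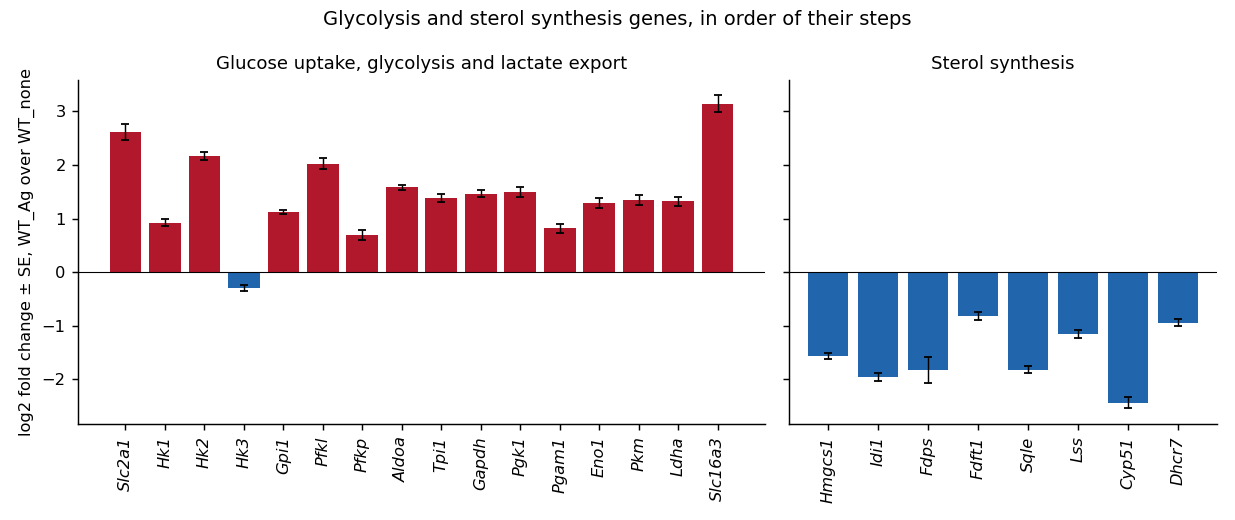
Log2 fold change (WT_Ag over WT_none) with SE bars of 16 glycolysis genes and 8 sterol synthesis genes, in the order of the steps. Red bars rose and blue bars fell. Of the glycolysis genes 15 rose, from 0.70 for Pfkp to 3.14 for Slc16a3, and Hk3 fell, and all 8 sterol genes fell, from -0.82 for Fdft1 to -2.43 for Cyp51.

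Genes of cell fusion and of the resting macrophage surface held some of the largest falls. Dcstamp, which is needed for macrophages and osteoclast precursors to fuse, stood at 0.339, 0.377 and 0.296 CPM in the WT_Ag libraries, against 42.4, 50.3 and 43 CPM in the WT_none libraries (log2 fold change -7.03 ± 0.164, adjusted p 5.39e-24). Its relative Ocstamp stood at 0.0565, 0.126 and 0.0986 CPM in WT_Ag, against 2.37, 1.88 and 2.46 CPM in WT_none (adjusted p 1.88e-10, too few counts with antigen for a fold), and Atp6v0d2, a proton pump subunit of fusing cells, at 67.5, 85 and 75.2 CPM in WT_Ag, against 1253, 1254 and 1234 CPM in WT_none (-4.04 ± 0.169). The groups are far apart for all 3. Of the 10 tested genes of that list 4 fell and 2 rose by at least 2-fold (median -0.48), and the 2 that rose were Acp5 (3.05), a phosphatase used as an osteoclast marker, and Mmp9 (1.70). Slco2b1, an organic anion transporter, had the largest fall at the same level limit, at 0.734, 0.461 and 0.247 CPM in WT_Ag, against 93.4, 109 and 95.3 CPM in WT_none (log2 fold change -7.71 ± 0.164, adjusted p 1.9e-21). The integrin Itgax, which encodes CD11c, stood at 25.1, 27.3 and 24.2 CPM in WT_Ag, against 628, 534 and 573 CPM in WT_none (log2 fold change -4.50 ± 0.177, adjusted p 1.91e-13). Gpr34, a lysophospholipid receptor, fell by -4.89 on the log2 scale, Rasgrp3 by -5.44, the chromatin protein Hmga2 by -5.35 and the intermediate filament gene Nes by -4.71. Mamdc2 (-7.40), Efr3b (-5.30), Fam78b (-5.24), Fam198b (-5.08), Pcp4l1 (-4.95) and Fat3 (-4.63) complete the 15 largest falls together with Ltf and Egr2, which are described with their groups.

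Scavenger and endocytic receptors fell more often than they rose at the 2-fold limit. Of 15 such receptors 3 rose and 6 fell by at least 2-fold (median -0.57). Cd36, a fatty acid and lipoprotein receptor, stood at 718, 775 and 712 CPM in WT_Ag, against 4682, 4893 and 4653 CPM in WT_none (log2 fold change -2.69 ± 0.0929, adjusted p 9.19e-15). The mannose receptor Mrc1 stood at 167, 192 and 177 CPM in WT_Ag, against 966, 1033 and 977 CPM in WT_none (log2 fold change -2.47 ± 0.143, adjusted p 4.54e-11). Timd4, which binds dying cells, fell by -2.58 and the β-glucan receptor Clec7a by -2.999. Besides Marco, the receptors that rose at least 2-fold were Clec4e (4.41), which senses mycobacterial lipid and dying cells, and Clec4n (2.43). Genes of macrophage identity were well counted in both groups. Adgre1, which encodes F4/80, stood at 4927, 4769 and 4689 CPM in WT_Ag, against 1651, 1647 and 1663 CPM in WT_none (log2 fold change 1.54 ± 0.0398, adjusted p 4.93e-23), and Csf1r at 1527, 1741 and 1632 CPM in WT_Ag, against 1808, 1867 and 1837 CPM in WT_none (log2 fold change -0.17 ± 0.0525, adjusted p 0.00618, adjusted p 0.0519 without WT_Ag replicate 1). Trem2, a lipid sensor of resting macrophages, fell by -2.78. Of the 18 identity genes 4 rose and 1 fell by at least 2-fold. Of 6 Fc receptors, which bind antibody, 2 rose and 1 fell by at least 2-fold. Without WT_Ag replicate 2, WT_none replicate 1 or WT_none replicate 3, 1 rose that far. The activating receptors Fcgr1 (1.01) and Fcgr4 (1.24) rose, the inhibitory Fcgr2b rose by 0.98 and the recycling receptor Fcgrt fell (-1.08).

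Lysosomal hydrolases and membrane proteins fell more often than they rose, with few large changes. Of 27 genes 15 fell and 7 rose at any fold, beside 34.5% and 33.5% of all tested genes. By at least 2-fold 4 fell and none rose, beside 8.92% and 10.7% of all tested genes (median -0.19). The summed level of the list was 40699.7 to 44881 CPM in WT_Ag and 62878 to 64260.4 CPM in WT_none. The cholesteryl ester hydrolase Lipa stood at 546, 574 and 535 CPM in WT_Ag, against 2360.0, 2349 and 2337 CPM in WT_none (log2 fold change -2.09 ± 0.0771, adjusted p 5.48e-15), and the glucuronidase Gusb fell by -1.65. The cathepsin Ctsb stood at 8678, 9351 and 8756 CPM in WT_Ag, against 15785, 16528 and 15905 CPM in WT_none, and the cathepsin Ctsd at 1661, 1939 and 1849.6 CPM in WT_Ag, against 3757, 3971 and 3779.9 CPM in WT_none. Each was lower in every WT_Ag library. Ctsh (0.82) rose and the membrane proteins Lamp1 (-0.03) and Lamp2 (0.01) were not called. Psap, the saposin precursor, Ctsb, Gpnmb, Mpeg1, Lpl and Apoe were the called lower genes with the most counts, and Fth1, mt-Co1, Lyz2, Saa3, Eef1a1 and Ftl1 the called higher ones. The call of mt-Co1 (0.11) was lost without WT_Ag replicate 2 (adjusted p 0.0585). Among 14 lysosomal ion channels 2 rose and 2 fell by at least 2-fold. The calcium-activated potassium channel Kcnma1 rose, at 1.02, 0.754 and 0.296 CPM in WT_Ag, against 0.0987, 0 and 0.0492 CPM in WT_none (adjusted p 9.43e-06), and the 2-pore channels Tpcn1 (-1.41) and Tpcn2 (-1.07) fell. In the autophagy list of 20, the receptor Sqstm1 was the member that rose by at least 2-fold (1.03), and the regulators of lysosome genes Tfeb (-1.40) and Mitf (-1.08) were the 2 that fell that far, with a median of -0.06.

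Among iron genes, storage rose while uptake and export fell. Fth1, the ferritin heavy chain, stood at 28702, 28899 and 29362 CPM in WT_Ag, against 8417, 8394 and 8518 CPM in WT_none (log2 fold change 1.78 ± 0.0436, adjusted p 1.36e-23). Slc40a1, the exporter ferroportin, stood at 91.4, 88.5 and 85.2 CPM in WT_Ag, against 352, 337 and 357 CPM in WT_none (log2 fold change -1.98 ± 0.132, adjusted p 3.07e-10). The transferrin receptor Tfrc fell by -1.18, Steap3 by -1.51, and the iron-sequestering protein Lcn2 and the ferroxidase Cp rose by 2.01 and 3.70, so that 3 of 11 members rose and 3 fell by at least 2-fold. Ferritin genes have many pseudogenes and can share reads with them. Of 14 antioxidant genes governed by NRF2, 4 rose by at least 2-fold and none fell that far. They were the cystine importer Slc7a11, at 486, 350.2 and 414 CPM in WT_Ag, against 17.9, 17.8 and 20 CPM in WT_none (log2 fold change 4.49 ± 0.178, adjusted p 2.1e-13), the haem-degrading enzyme Hmox1 (2.72), the glutathione synthesis subunit Gclm (1.90) and Gsr (1.89). In the endoplasmic reticulum and stress list the genes of the ATF4 branch, which answers to amino acid shortage among other stresses, rose, with Atf4 at 1.76, Ddit3 at 2.33, Trib3 at 4.93, Chac1 at 2.93 and Asns at 2.62, and these were the 5 of 15 members past 2-fold. The folding proteins Hspa5 (-0.16), Hsp90b1 (-0.34) and Sdf2l1 (-0.70) fell by less than 2-fold.

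Secreted enzymes and complement moved strongly in both directions. Mmp12, the macrophage elastase, stood at 319, 288 and 272 CPM in WT_Ag, against 5126, 5234 and 5177 CPM in WT_none (log2 fold change -4.14 ± 0.195, adjusted p 2.46e-12), while the gelatinase Mmp2 (3.14) and the membrane protease Mmp14 (3.16) rose. Of 12 such genes 4 rose and 3 fell by at least 2-fold. In the complement list of 15, 7 rose and 2 fell by that much. C3, the central component, stood at 720.1, 740.4 and 732 CPM in WT_Ag, against 65.2, 94.1 and 81.7 CPM in WT_none (log2 fold change 3.18 ± 0.111, adjusted p 1.67e-14). Cfb, of the alternative pathway, stood at 12.6, 12.6 and 14 CPM in WT_Ag, against 0, 0.0483 and 0.0492 CPM in WT_none and is near the counting floor without antigen. C4b rose by 3.31. In prostaglandin synthesis, Ptgs2, the inducible cyclooxygenase, stood at 279.9, 200.0 and 224 CPM in WT_Ag, against 2.37, 6.95 and 4.97 CPM in WT_none (log2 fold change 5.61 ± 0.367, adjusted p 2.66e-10), the prostaglandin E synthase Ptges rose by 4.03, and Hpgd, which degrades prostaglandins, fell by -3.51. With Pla2g4a higher and Hpgds and Tbxas1 lower, 3 of 13 members rose and 3 fell by at least 2-fold. Among 17 chemokine receptors and adhesion genes 4 rose and 2 fell by that much: Fpr1, Fpr2, the integrin Itgal (2.49) and the lymph node homing receptor Ccr7 (1.75) rose, and Ccr2 (-1.34) and C5ar2 (-1.86) fell.

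Cell division genes fell nearly throughout, with 24 of 26 lower at any fold, 16 of them by at least 2-fold, and a median of -1.05. Of all tested genes 34.5% were lower at any fold and 8.92% by at least 2-fold. The proliferation marker Mki67 stood at 98, 110.2 and 102 CPM in the WT_Ag libraries, against 280.2, 276 and 279 CPM in the WT_none libraries (log2 fold change -1.43 ± 0.0683, adjusted p 3.24e-14). Pcna, the sliding clamp of DNA replication, stood at 133, 132 and 128 CPM in WT_Ag, against 406, 458 and 409 CPM in WT_none (log2 fold change -1.69 ± 0.0436, adjusted p 4.32e-23). Ccnd1, the cyclin that growth factors induce, stood at 14.4, 14.9 and 12.7 CPM in WT_Ag, against 103, 127 and 98.4 CPM in WT_none (log2 fold change -2.96 ± 0.227, adjusted p 2.36e-09). No WT_Ag library reached any WT_none library for these genes. The mitotic genes Plk1 (-1.41), Cdc20 (-1.47) and Ccna2 (-1.56) fell as well, Ccne1 rose (0.97), and E2f1 was not called (log2 fold change -0.06 ± 0.0666, adjusted p 0.461). In bulk RNA of mixed cells, fewer cells of a type and less RNA per cell cannot be told apart.

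T cell receptor genes showed no called change. Cd3e stood at 1.24, 0.796 and 1.58 CPM in WT_Ag, against 0.79, 1.06 and 0.984 CPM in WT_none (log2 fold change 0.33 ± 0.281, adjusted p 0.314), and Trac at 1.13, 1.3 and 1.38 CPM in WT_Ag, against 1.38, 1.5 and 1.57 CPM in WT_none (log2 fold change -0.22 ± 0.199, adjusted p 0.389). The groups overlap for Cd3e and not for Trac. Of 19 T cell genes none rose and 4 fell by at least 2-fold, namely Cd28, at 8.24, 8.21 and 8.19 CPM in WT_Ag, against 126, 149 and 131 CPM in WT_none (log2 fold change -4.04 ± 0.0822, adjusted p 3.19e-24), Il7r (-1.66), Cd4 (-1.46) and Lat (-1.84). Cd8a rose by less than 2-fold (log2 fold change 0.61 ± 0.175, adjusted p 0.00312). The summed level of the list was 230.1 to 256 CPM in WT_Ag and 810.3 to 820.5 CPM in WT_none, and Il7r within it stood at 178, 204 and 189 CPM in WT_Ag, against 603, 596 and 603 CPM in WT_none. Il7r and Cd28 made up most of the WT_none sum, so the lower sum with antigen does not describe the other members. Both stood far above Cd3e and Trac in WT_none, and which cells they came from was not tested. Of the 19 members 14 were not called. Ifng, the interferon that activated T and NK cells make, stood at 2.71, 2.68 and 2.27 CPM in WT_Ag, against 0.444, 0.483 and 0.492 CPM in WT_none (log2 fold change 2.42 ± 0.32, adjusted p 1.28e-07). Gzmb, a granule protease, stood at 33.6, 28 and 40.7 CPM in WT_Ag, against 42.7, 46.4 and 45.9 CPM in WT_none (log2 fold change -0.41 ± 0.14, adjusted p 0.0163), and its call was lost with the compared groups alone (adjusted p 0.0585) and without WT_Ag replicate 2 (0.104) or WT_none replicate 2 (0.0511). Gzma (-1.59) and the NK cell genes Klrb1c (-2.47) and Ncr1 (-1.49) fell, and the pore protein Prf1 was not called (log2 fold change -0.52 ± 0.256, adjusted p 0.0741). Of 14 tested cytotoxic genes 1 rose and 3 fell by at least 2-fold, and the list summed to 55.9 to 79.7 CPM in WT_Ag and 82.4 to 88.8 CPM in WT_none.

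Most neutrophil genes fell. Ltf, which encodes lactoferrin, stood at 1.02, 1.17 and 1.18 CPM in WT_Ag, against 111, 89.3 and 109 CPM in WT_none (log2 fold change -6.51 ± 0.191, adjusted p 2.93e-16). Camp, Ngp and Retnlg fell by log2 fold changes of -4.68, -4.04 and -4.87, and Mmp8 rose (2.41). Ly6g, the surface marker of mouse neutrophils, stood at 0, 0.0419 and 0.0986 CPM in WT_Ag, against 0.79, 0.386 and 1.03 CPM in WT_none (adjusted p 7.29e-06). Of 13 such genes 1 rose and 7 fell by at least 2-fold (median -1.59), and their summed level was 914 to 997 CPM in WT_Ag and 1405 to 1568 CPM in WT_none. Of 10 tested B cell genes 1 fell by at least 2-fold, Blnk (-1.23), and the list summed to 125 to 129.9 CPM in WT_Ag and 212 to 213 CPM in WT_none. Plasma cell genes had 1 of 9 lower by at least 2-fold, Ighm (-1.41), or 2 without WT_Ag replicate 3, and summed to 201 to 228 CPM in WT_Ag and 284 to 298 CPM in WT_none. Of 10 tested dendritic cell genes 4 rose, Ccr7, Fscn1, Ccl22 and Bst2, and 2 fell, Itgax and Siglech, by at least 2-fold (median 0.52). The list summed to 372 to 408 CPM in WT_Ag and 616 to 704 CPM in WT_none. Itgax made up most of the WT_none sum, at up to 628 CPM, so the lower sum with antigen does not describe the other members. Of 11 fibroblast genes 5 rose by at least 2-fold, and without WT_none replicate 2 this count was 3, with 1 gene lower by that much. Col1a1 among them stood at 69, 45.3 and 71.5 CPM in WT_Ag, against 27, 7.63 and 25.7 CPM in WT_none (log2 fold change 1.62 ± 0.425, adjusted p 0.00275), with replicate 2 the lowest in both groups. The fibroblast list summed to 211 to 321 CPM in WT_Ag and 148 to 282 CPM in WT_none. The part of these other cell types in the results above was not tested. None of the 9 melanoma genes, among them Pmel, Tyr and Mlana, had enough counts to be tested, with at most 7 counts in any of the 6 libraries, and 4 of them were at 0 throughout. Red cell genes were likewise too low, with at most 8 counts.

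**Figure D4:**
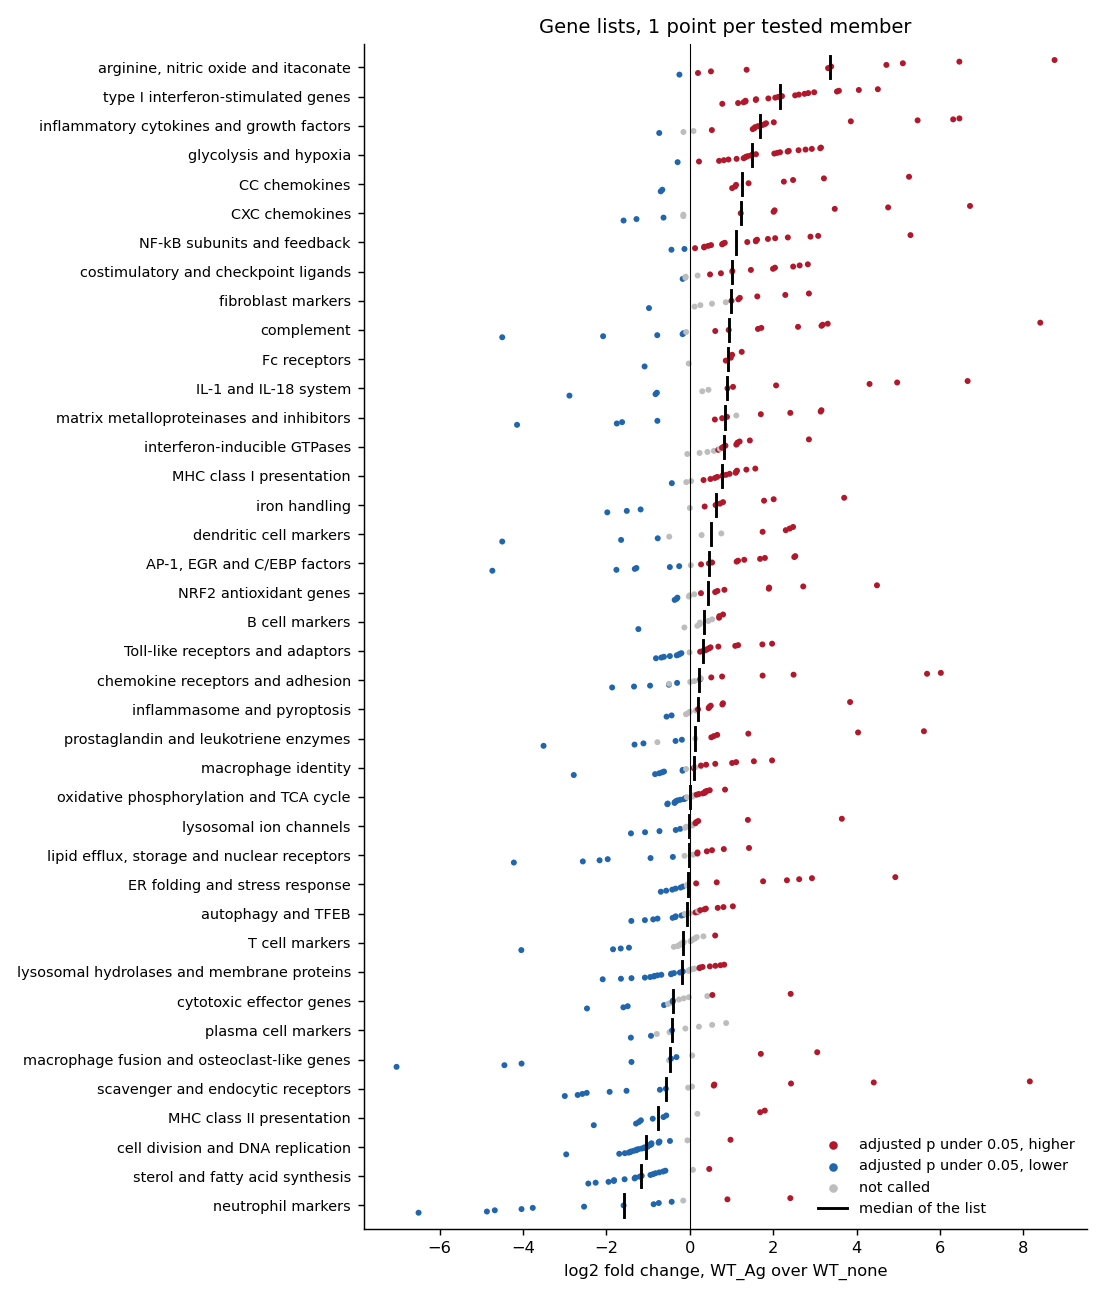
Log2 fold change (WT_Ag over WT_none) of every tested member of the 40 gene lists with at least 5 tested members, ordered by the median of the list (black line). Red and blue points passed an adjusted p of 0.05 as higher and lower. Arginine, nitric oxide and itaconate genes have the highest median, 3.35, and neutrophil markers the lowest, -1.59.

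Most of the WT response was also seen with knockout macrophages, measured in 6 other libraries (KO_Ag against KO_none). The titles of all 12 knockout samples name Tmem175, while the genotype field of 11 of them names other genes, and the titles were followed. Tmem175 stood at 7.61, 8.75 and 8.12 CPM in KO_Ag, against 15, 14.1 and 14.6 CPM in KO_none. Each knockout group was lower than the WT group of the same condition without overlap, yet the gene stayed well counted in the knockout libraries, and the source of those counts was not tested. Across the 14099 genes the 2 responses had a Pearson r of 0.92, a description over genes, which are not independent replicates. Of the 1511 genes that rose at least 2-fold in WT, 1263 also did so in knockout cultures, which is 83.6% of the WT list and 81.8% of the knockout list (11% of tested genes rose that far in knockout cultures, and 8.45% fell). Of the 1258 that fell, 928 did (73.8% of the WT list and 77.9% of the knockout list), and no gene passed 2-fold in opposite directions. The difference of the responses, WT minus knockout, was itself tested, and it was positive for 649 genes (4.60%) and negative for 534 (3.79%). Leaving out single libraries moved the positive count to between 378 (without KO_Ag replicate 1) and 834, with 429 without WT_Ag replicate 3, and the negative count to between 357 (without KO_none replicate 3) and 863, both highest without KO_none replicate 2. Of the 2769 genes that differed at least 2-fold in WT, 361 (13.0%) had such a difference.

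Of the lists, cell division had the most members with such a difference. It was negative in 21 of 26 members against 3.79% of all genes, and the list's median log2 fold change was -1.05 with WT and -0.46 with knockout macrophages. Mki67 changed by -1.43 with WT and -1.03 with knockout macrophages (difference -0.39 ± 0.0954, adjusted p 0.0127). The monocyte attractants Ccl12 and Ccl7 rose less in WT, although the difference for Ccl7 had an adjusted p of 0.0677 with the compared groups alone. Ccl12 stood at 14.2, 15.5 and 12.6 CPM in WT_Ag, against 1.53, 1.64 and 1.38 CPM in WT_none, beside 33.1, 22.3 and 22.4 CPM in KO_Ag, against 0.344, 1.07 and 0.18 CPM in KO_none (difference -2.45 ± 0.556, adjusted p 0.00958, and a difference of -3.41 without KO_none replicate 2, the highest of its group). Gzmb differed as well, at 39.5, 45.3 and 48 CPM in KO_Ag, against 13.3, 13.8 and 13.3 CPM in KO_none (difference -2.12 ± 0.212, adjusted p 6.04e-06). Thus Gzmb rose with knockout macrophages, while in WT it fell, a call with the limits given above. Without antigen its level was higher in WT than in knockout cultures, and with antigen the genotypes lay closer together. Slpi, a secreted inhibitor of neutrophil proteases, rose more in WT, at 59.6, 53.5 and 55.6 CPM in WT_Ag, against 1.78, 1.79 and 1.92 CPM in WT_none, beside 91.3, 91.5 and 95.8 CPM in KO_Ag, against 14.9, 10.6 and 12.5 CPM in KO_none (difference 2.07 ± 0.242, adjusted p 2.18e-05). Fn1, the matrix protein fibronectin, fell less in WT, by -0.98 beside -3.29 on the log2 scale with knockout macrophages. The fall of Tmem175 did not pass the test of a difference (0.11 ± 0.111, adjusted p 0.622).

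**Figure D5:**
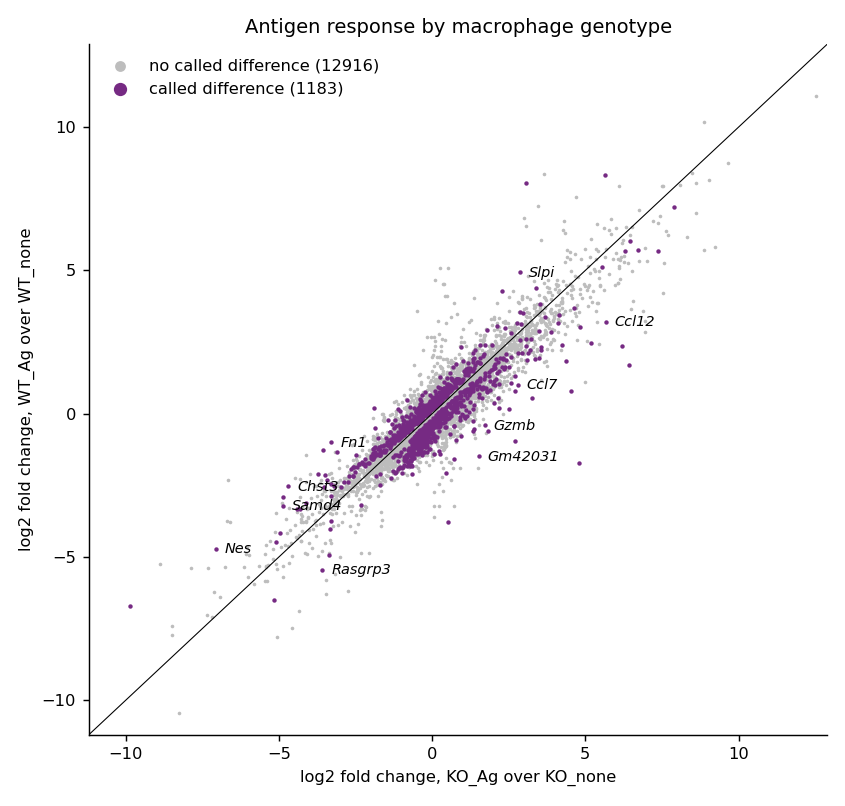
Log2 fold change with antigen in WT cultures (vertical) against that in knockout cultures (horizontal) for each of the 14099 tested genes, with the line of equal response. Purple points are the genes whose difference of responses passed an adjusted p of 0.05, 649 above the line and 534 below it. Slpi and Fn1 lie above the line and Ccl12, Ccl7 and Gzmb below it.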

How the data were processed

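Poly(A) RNA of co-cultures was sequenced. The deposited values were raw counts by Ensembl gene, for which the authors used fastp and genome build GRCm39, per the submitters' processing notes. The aligner, counter and strand setting are not given in the sources used here. Of 55487 genes 346 had no symbol, and 0 per-sample columns were left unused. Groups came from the sample titles. Genes passing edgeR's filterByExpr (14099, with 99.9% of the counts) were fitted in all 24 libraries with TMM factors and robust quasi-likelihood (edgeR 4.0.16, R 4.3.3), 1 coefficient per group and 16 residual degrees of freedom; the coefficient of variation between replicates was 5.01%. Calls needed an adjusted p under 0.05, and 2-fold calls also a log2 fold change of at least 1 in size. No fold is given where a group averaged under 3 counts per library. The steps were tested on simulated counts. DESeq2 1.42.0 was an alternative. The comparison, the 42 gene lists and the genes named were chosen with earlier results of these data known. Named genes are the 15 highest and 15 lowest called without overlap and with a mean level of 2 log2 CPM or more, the 6 largest called changes of each list and members that define a cell type or step, the 5 highest and 5 lowest differences of responses, Tmem175, and the 6 called genes with the highest CPM each way. Promoters are RefSeq's on GRCm38.p6, an earlier build than that of the counts, matched by symbol (10220 genes). A few genes are not reported here.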

Additional observations from a re-analysis of the deposited data

Results flagged for a closer look

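The antigen response differed between WT and knockout cultures by a test of the difference itself for 649 genes in the positive and 534 in the negative direction (WT minus knockout). By list, negative differences were called for 21 of 26 cell division genes, 6 of 20 type I interferon-stimulated genes and 6 of 14 cytotoxic genes, and positive ones for 6 of 27 lysosomal genes and 6 of 20 autophagy genes. With 1 library left out, the number of type I interferon-stimulated genes with a negative difference ran from 0 (without WT_none replicate 2) to 14 (without KO_none replicate 2), and the lysosomal number was 3 without KO_Ag replicate 1. Without KO_none replicate 2, negative differences were also called for 15 interferon-inducible GTPases and 12 genes of MHC class I presentation, beside 0 in each list with it. The numbers for cell division, cytotoxic and autophagy genes stayed within 1.5 times with each single library left out. The background was 4.60% of tested genes positive and 3.79% negative.

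The largest positive differences on the log2 scale were 2.36 for Nes, 2.31 for Fn1, 2.16 for Chst3, 2.07 for Slpi and 1.66 for Samd4. Nes and Chst3 fell in both genotypes, by -4.71 and -2.54 in WT and -7.06 and -4.70 in knockout cultures. The largest negative ones were -3.001 for Gm42031, -2.45 for Ccl12, -2.12 for Gzmb, -1.86 for Rasgrp3 and -1.78 for Ccl7. The difference for Gm42031 was lost without KO_Ag replicate 2 (adjusted p 0.0718) or KO_none replicate 3 (0.0623), and it was -3.85 without KO_none replicate 1. Rasgrp3 fell by -5.44 in WT and -3.58 in knockout cultures. Groups of 3 libraries are too small for a test of single outlying samples.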

How the results depend on the processing

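The 4 counts of the WT response (4723 and 4868 called, 1511 and 1258 past 2-fold) stayed within 1.5 times under every alternative run: DESeq2's factors, DESeq2's test, no filter on low counts, the compared groups alone, a replicate block, and each library left out. Leaving out 1 library gave 4541 to 4638, 4579 to 4718, 1515 to 1584 and 1243 to 1302. Of 312 called genes that the naming rule or the text gives, 12 lost the call in at least 1 of the 11 alternatives and none turned, among them Cxcl9, Cxcl10, Iigp1, Rel, Csf1r, Gzmb and mt-Co1. With the compared groups alone 308 of them had a value. Csf3, Kcnma1, Klrb1c and Ly6g had none there and were followed over 10 alternatives. Of genes given as not called, Casp1, Gbp2, Tgtp1 and Tgtp2 were called with the compared groups alone, Tgtp1 also with no filter, Srebf1 without WT_Ag replicate 3, and Prf1 without that library or without WT_none replicate 1. The differences of responses were less stable: beside 649 positive, 357 were counted with the compared groups alone, and 378 to 834 with 1 library left out (429 without WT_Ag replicate 3). Beside 534 negative, 357 to 863 were counted with 1 library left out. The median of the prostaglandin list turned to -0.014 with no filter on low counts, where 1 more gene is counted. The κB motif with 1 more fixed base (GGGA, any 2 bases, TTCC) was found in 2.16% of genes that rose and 1.84% of those that fell, and the spaced GAAA repeat in 4.67% of genes that rose with no minimum fold. The cause of these shifts was not tested. The main fit did not pair samples by replicate number. Same-numbered deviations correlated weakly, at 0.0664, 0.158 and 0.0601, and differently numbered ones at -0.122 to 0.0589. With a replicate block 4845 genes rose and 4981 fell, 1526 and 1263 past 2-fold. A difference of responses was then called for 872 genes in the positive and 724 in the negative direction. Each antigen sample correlated best with its own number, at most a weak hint, from the data and not from the design. For WT_Ag replicate 3 the match was nearly a tie, at 0.0601 with WT_none replicate 3 and 0.0589 with WT_none replicate 1. At this depth a gene averaging under 3 counts per library gives no fold. Counts of list members with 1 library left out, and the use of any listed promoter, were chosen after seeing the data.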
